A study of Homo sapiens with 4 samples.

Results

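The receptor tyrosine kinases described here are a named set of 10 genes with a history in melanoma: *ERBB3*, *ERBB2*, *EGFR*, *MET*, *AXL*, *DDR1*, *DDR2*, *FGFR1*, *PDGFRB* and *KIT*. They were picked by symbol from the deposited expression table, and 9 of the 10 were matched among the 18175 genes and loci it lists. *KIT*, the receptor of stem cell factor, was not analysed here. The table holds RNA sequencing values of SK-MEL-28 and A375, which are established human melanoma lines. Cells of each line received siLINC01291, by its name an siRNA to LINC01291 (a long non-coding RNA), or siNC, by its name a negative control siRNA. The 4 groups were SK-MEL-28 siLINC01291, SK-MEL-28 siNC, A375 siLINC01291 and A375 siNC, with 1 library each. The treatment label also names EL for both lines without explaining it, and the sources used here do not say whether these cells received it.

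With 1 library per group, a difference within a line has no replicate check, and its interval covers counting error only. The treatment is replicated only across the 2 lines, and the 2 libraries of a line differ by siRNA and are not replicate cultures. The libraries held 29351240 to 31815336 counts. LINC01291 itself had 3.70 FPKM (counts scaled by gene length and library total) in SK-MEL-28 siLINC01291, against 8.11 in SK-MEL-28 siNC. It had 2.28 FPKM in A375 siLINC01291, against 6.39 in A375 siNC. Over both lines it fell by 1.34 on the log2 scale (SE 0.13, edgeR quasi-likelihood test, adjusted p = 0.0171, and 0.118 with limma). Of 11 melanocyte markers, 11 reached an FPKM of 1 in both SK-MEL-28 libraries and 6 in both A375 libraries, where *TYR*, *DCT*, *TYRP1*, *MLANA* and *S100A1* stayed below 1. Their summed level was 2061 and 1708 FPKM in SK-MEL-28 (siLINC01291, siNC), against 258 and 198 FPKM in A375. Among 7 keratinocyte, 6 fibroblast, 6 leukocyte and 4 endothelial markers, 3, 1, 1 and 1 were listed, with summed levels of at most 35.6, 8.07, 1.94 and 2.37 FPKM.

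Receptor tyrosine kinases span the plasma membrane. A ligand outside the cell pairs 2 receptor chains, the kinase domains phosphorylate each other, and adaptor proteins dock on the phosphorylated tails to start RAS-ERK, PI3K-AKT and STAT signalling. In melanoma, melanocytic cells with high MITF are known for ERBB3 and KIT, while dedifferentiated cells with low MITF are known for AXL, EGFR and PDGFRB, and a change of the receptors in use is a known route by which cells with mutant BRAF escape RAF and MEK inhibitors. *MITF*, the regulator of the melanocyte lineage, had 75.8 and 60.6 FPKM in SK-MEL-28 (siLINC01291, siNC), against 5.48 and 5.68 FPKM in A375. *SOX10*, a neural crest factor upstream of *MITF*, had 147 and 127 FPKM in SK-MEL-28, against 118 and 80.1 FPKM in A375. A375 was thus the line with low *MITF*, with *SOX10* retained.

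Sequence stretches of the receptors are shown first. Every one of the 3 annotated LINC01291 transcripts holds the overlapping 7-base words TCTATGA and CTATGAA. The words had been singled out in earlier work on these libraries, so their presence in a receptor is a description and carries no test. In the 3′ UTR of the principal transcript (GENCODE 29), *AXL*, *FGFR1* and *DDR2* held such a word, which is 3 of the 9 receptors. Of 10445 genes expressed in A375, where all 9 receptors were expressed, and searched in the same way, 14.4% held one. UTR length was not matched, and the *DDR2* UTR has 7154 bases. The AXL site lies at base 833 of the UTR, and the DDR2 sites at bases 2483 and 6744. They are printed 5′ to 3′ on the transcript strand, with the word in capitals.
AXL: ggagctaaggcTCTATGAgtctagatgttt
DDR2 first site: cactgggttatTCTATGAttccatattttt
DDR2 second site: accaaaaaaaaCTATGAAaaccagaattta

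The promoters of *AXL* and *DDR2* are shown because both receptors were far lower in SK-MEL-28 than in A375 and carried different motifs. The windows run from 250 bases before to 50 after the RefSeq start (GRCh38.p14, plus strand), and 7 of the 9 receptors had one. 5 motifs were searched on both strands: TGAGTCA (the AP-1 motif), CACGTG or CATGTG (the E-box that MITF binds), ACAAAG (SOX), CATTCC (the M-CAT motif of TEAD factors) and GGGCGG (the GC box). The AP-1 motif was found in DDR2 alone among the 7 and in 4.95% of 35114 promoters. The GC box was found in AXL, EGFR, MET and PDGFRB and in 45.0% of promoters, the E-box in MET (17.6%), the SOX motif in DDR1 (16.1%) and the M-CAT motif in none of the 7 (14.0%). A match describes the letters only. Capitals mark the GC boxes of *AXL* (chr19:41218973-41219272) and the AP-1 motif of *DDR2* (chr1:162630613-162630912).
AXL promoter: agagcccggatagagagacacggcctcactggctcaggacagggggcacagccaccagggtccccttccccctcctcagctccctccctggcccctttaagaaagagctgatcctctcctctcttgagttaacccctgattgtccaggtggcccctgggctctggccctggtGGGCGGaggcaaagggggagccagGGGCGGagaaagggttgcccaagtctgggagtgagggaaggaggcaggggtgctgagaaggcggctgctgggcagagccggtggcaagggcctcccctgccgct
DDR2 promoter: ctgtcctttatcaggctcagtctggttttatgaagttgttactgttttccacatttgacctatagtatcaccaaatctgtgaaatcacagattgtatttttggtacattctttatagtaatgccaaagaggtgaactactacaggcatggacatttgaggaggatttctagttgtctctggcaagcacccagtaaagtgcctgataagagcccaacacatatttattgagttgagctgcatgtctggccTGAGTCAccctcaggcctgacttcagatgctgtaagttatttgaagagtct

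By the deposited FPKM, the lines carried different sets of receptors. In SK-MEL-28, *ERBB3*, *MET* and *ERBB2* were the receptors above an FPKM of 1, and the other 6 stayed below it in both libraries. In A375, all 9 were above 1 in both libraries, and *AXL* led. In bulk RNA, fewer cells with a transcript and less of it per cell cannot be told apart. The summed level of the 9 was 23.2 and 22.5 FPKM in SK-MEL-28 (siLINC01291, siNC), against 211 and 212 FPKM in A375. *AXL* made up 2.23% and 2.96% of that sum in SK-MEL-28, against 56.6% and 59.3% in A375. *ERBB3* made up 36.3% and 41.5% in SK-MEL-28, against 12.6% and 7.26% in A375, and *ERBB2* 26.4% and 20.4%, against 2.78% and 2.39%. *AXL* thus stood at 0.0614 and 0.0713 times the *ERBB3* level in SK-MEL-28, against 4.48 and 8.17 times in A375, all on the FPKM scale. These shares and ratios depend on the gene lengths used, which for *ERBB3* were 11.7 kb as deposited and 5.92 kb for the principal transcript. Per kb of principal transcript, A375 had 129 and 136 CPM of *AXL*, against 52.7 and 30.4 of *ERBB3* (siLINC01291, siNC), so the lead of *AXL* was smaller. On that scale SK-MEL-28 had 1.91 and 2.10 CPM of *FGFR1* (siLINC01291, siNC), so its place below 1 depends on the length used. *AXL*, *DDR2*, *DDR1*, *EGFR* and *PDGFRB* stayed below 1 in SK-MEL-28 with either length.

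**Figure D1:**
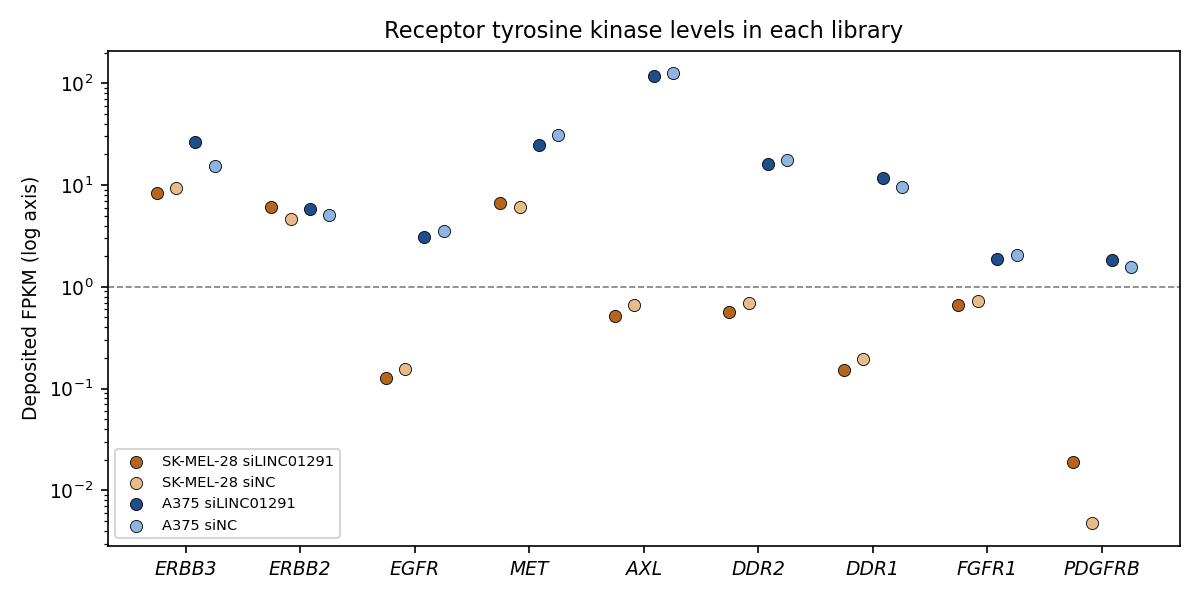
Deposited FPKM (log axis) of the 9 receptors in each of the 4 libraries; each point is 1 library and the dashed line marks an FPKM of 1. In SK-MEL-28 *ERBB3*, *ERBB2* and *MET* lie above the line, and in A375 all 9 do, with *AXL* at 119 and 125.

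**Figure D2:**
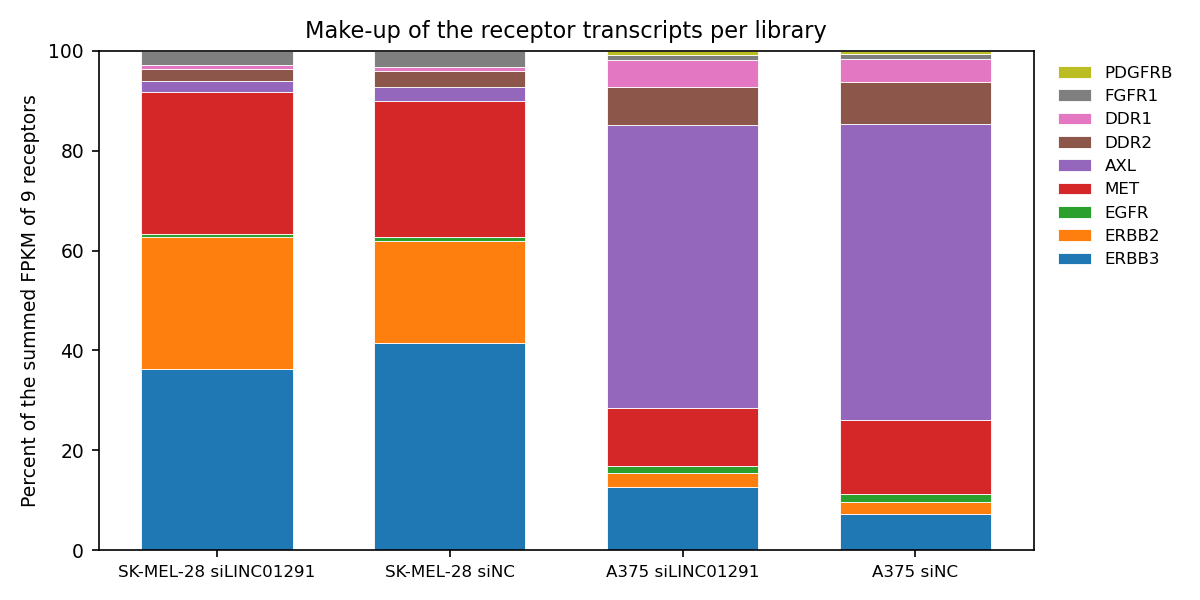
Percent of the summed FPKM of the 9 receptors taken by each receptor, with 1 bar per library. *ERBB3*, *MET* and *ERBB2* fill most of both SK-MEL-28 bars, and *AXL* takes 56.6% and 59.3% of the A375 bars.

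Of the 9 receptors, 8 were lower and 0 higher in SK-MEL-28 than in A375 past the threshold (edgeR quasi-likelihood test on all 4 libraries with the siRNA in the model, Benjamini-Hochberg adjusted p below 0.05). Of the 13501 genes tested, 36.3% were lower and 36.1% higher, or 72.4% in either direction. At least 16-fold lower were *AXL*, *PDGFRB*, *DDR1*, *DDR2* and *EGFR*, against 5.16% of the genes tested. *AXL*, *EGFR*, *PDGFRB*, *FGFR1*, *DDR1* and *DDR2* entered the test only through their level in A375, so nothing is read from the count. For the same reason, the adjusted p between the lines given below for each of these genes is a description. With the siRNA fixed, the fold between the lines is given below with its 95% counting interval.

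*ERBB3* binds neuregulins and has a weak kinase of its own, so that it signals as a partner of *ERBB2*. It had 8.41 FPKM in SK-MEL-28 siLINC01291 and 9.36 in SK-MEL-28 siNC, against 26.6 in A375 siLINC01291 and 15.4 in A375 siNC. The A375 siLINC01291 library stood above the other libraries, and the lines did not overlap. *ERBB3* was 2.81-fold lower in SK-MEL-28 with siLINC01291 (2.69 to 2.93) and 1.47-fold lower with siNC (1.40 to 1.53). Over the 4 libraries the log2 difference was −1.02 (SE 0.21, edgeR adjusted p = 0.00431). *ERBB3* is at chr12:56076799-56103505 (GRCh38, as all gene positions here).

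*ERBB2* has no known ligand and is the preferred partner of the other ERBB receptors. It had 6.10 FPKM in SK-MEL-28 siLINC01291 and 4.61 in SK-MEL-28 siNC, against 5.87 in A375 siLINC01291 and 5.06 in A375 siNC. The lines overlapped, and in both the siLINC01291 library was the higher one. *ERBB2* did not pass the test between the lines (log2 difference 0.13, SE 0.10, edgeR adjusted p = 0.295), and its sign turned with scaling by library totals (−0.042). The gene, at chr17:39687914-39730426, overlaps *PGAP3* and *MIEN1* on the opposite strand. *PGAP3* had 274 and 164 counts in SK-MEL-28 (siLINC01291, siNC) and 323 and 271 in A375, and *MIEN1* 639 and 638 in SK-MEL-28 and 555 and 419 in A375. *ERBB2* had 1853 and 1402 counts in SK-MEL-28 and 1933 and 1617 in A375. The sources used here do not state whether counting used strand, and the part of these neighbours in the *ERBB2* values was not tested.

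*EGFR*, the receptor of EGF, TGF-alpha, amphiregulin and HB-EGF, had 0.128 FPKM in SK-MEL-28 siLINC01291 and 0.157 in SK-MEL-28 siNC, against 3.07 in A375 siLINC01291 and 3.50 in A375 siNC. Its 47 and 58 counts in SK-MEL-28 were above the floor of 3 counts but low. It was 21.3-fold lower in SK-MEL-28 with siLINC01291 (15.9 to 29.2) and 19.9-fold lower with siNC (15.3 to 26.4), with a log2 difference of −4.36 over the 4 libraries (SE 0.14, edgeR adjusted p = 1.78e-06). *EGFR* lies at chr7:55019021-55211628. In SK-MEL-28 the ERBB family was thus carried by *ERBB3* and *ERBB2*, while A375 added *EGFR* at a level below both.

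*MET*, the receptor of hepatocyte growth factor, had 6.60 FPKM in SK-MEL-28 siLINC01291 and 6.13 in SK-MEL-28 siNC, against 24.6 in A375 siLINC01291 and 31.2 in A375 siNC. By FPKM it took rank 2 in SK-MEL-28, and rank 3 in A375 siLINC01291 and rank 2 in A375 siNC. *MET* was 3.31-fold lower in SK-MEL-28 with siLINC01291 (3.12 to 3.51) and 4.56-fold lower with siNC (4.30 to 4.84), and its log2 difference was −1.96 (SE 0.13, edgeR adjusted p = 2.67e-05). The gene is at chr7:116672390-116798386. The lines did not overlap, and the siLINC01291 library was the higher one in SK-MEL-28 and the lower one in A375.

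*AXL*, a receptor of GAS6 of the TAM family, had the largest fitted difference between the lines among the 9. It had 0.516 FPKM in SK-MEL-28 siLINC01291 and 0.667 in SK-MEL-28 siNC, against 119 in A375 siLINC01291 and 125 in A375 siNC. The SK-MEL-28 libraries held 78 and 101 *AXL* counts, against 19541 and 19951 in A375. In both A375 libraries *AXL* stood at percentile 98.0 of the genes with an FPKM of at least 1. It was 205-fold lower in SK-MEL-28 with siLINC01291 (164 to 259) and 168-fold lower with siNC (138 to 207), and its log2 difference was −7.53 (SE 0.12, edgeR adjusted p = 4.65e-07). *AXL* lies at chr19:41219203-41261766, and its antisense neighbour *AC011510.1* held 0 and 0 counts in SK-MEL-28 and 45 and 44 in A375. *MERTK*, another TAM receptor, ran the other way, with 15.6 and 10.4 FPKM in SK-MEL-28 (siLINC01291, siNC), against 0.199 and 0.141 in A375. The log2 difference of *MERTK* was 6.41 (edgeR adjusted p = 7.62e-07), while *TYRO3*, chosen after its values were seen, had 6.86 and 6.11 FPKM in SK-MEL-28, against 6.16 and 5.23 in A375.

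*DDR1* and *DDR2* are discoidin domain receptors, which bind collagen in place of a growth factor. *DDR2* had 0.563 FPKM in SK-MEL-28 siLINC01291 and 0.694 in SK-MEL-28 siNC, against 15.9 in A375 siLINC01291 and 17.7 in A375 siNC. *DDR1* had 0.153 and 0.197 FPKM in the same SK-MEL-28 libraries, against 11.7 and 9.62 in A375. Both collagen receptors were thus below an FPKM of 1 in SK-MEL-28 and well above it in A375, and the lines did not overlap. *DDR2* was 25.1-fold lower in SK-MEL-28 with siLINC01291 (21.7 to 29.2) and 22.8-fold lower with siNC (20.0 to 26.1), and its log2 difference was −4.58 (SE 0.11, edgeR adjusted p = 7.84e-07). *DDR1* was 67.9-fold lower with siLINC01291 (49.9 to 94.8) and 43.7-fold lower with siNC (33.3 to 58.4), and its log2 difference was −5.75 (SE 0.18, edgeR adjusted p = 1.49e-06). *DDR2* lies at chr1:162631373-162787400 and *DDR1* at chr6:30876421-30900156. *COL4A1* and *COL4A2*, which encode basement membrane collagen, were lower in SK-MEL-28 as well, with log2 differences of −7.18 and −7.75 (edgeR adjusted p = 4.86e-07 and 4.65e-07). These collagen genes also entered the test through A375 only, so their adjusted p is a description.

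*FGFR1* and *PDGFRB* took the last ranks in A375 by the deposited FPKM, though *FGFR1* stood above *EGFR* per principal transcript length. *FGFR1*, a receptor of fibroblast growth factors, had 0.656 FPKM in SK-MEL-28 siLINC01291 and 0.720 in SK-MEL-28 siNC, against 1.89 in A375 siLINC01291 and 2.06 in A375 siNC. Its fold was the same with either siRNA within counting error, at 2.56-fold lower in SK-MEL-28 with siLINC01291 (2.26 to 2.90) and 2.57-fold lower with siNC (2.28 to 2.90). The log2 difference was −1.36 (SE 0.11, edgeR adjusted p = 6.88e-05). *FGFR1* is at chr8:38400215-38468834 and overlaps *LETM2* on the opposite strand, which had 67 and 71 counts in SK-MEL-28 and 154 and 173 in A375, beside 332 and 365 and 1039 and 1100 *FGFR1* counts.

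*PDGFRB*, a PDGF receptor best known from pericytes and fibroblasts, was nearly undetected in SK-MEL-28. It had 4 counts in SK-MEL-28 siLINC01291 and 1 in SK-MEL-28 siNC, against 415 in A375 siLINC01291 and 344 in A375 siNC. These are 0.0191 and 0.00475 FPKM in SK-MEL-28, against 1.82 and 1.56 FPKM in A375. The SK-MEL-28 level was 1.18% of the A375 level with siLINC01291 (0.320 to 3.04%) and 0.341% with siNC (0.00862 to 1.92%). Its log2 difference was −6.92 (SE 0.32, edgeR adjusted p = 6.27e-06), a fitted value that rests on 5 counts in SK-MEL-28. *PDGFRB* lies at chr5:150113837-150155872.

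Within SK-MEL-28 the order by FPKM was *ERBB3*, *MET*, *ERBB2*, *FGFR1*, *DDR2*, *AXL*, *DDR1*, *EGFR* and *PDGFRB* in both libraries. In A375 siLINC01291 it was *AXL*, *ERBB3*, *MET*, *DDR2*, *DDR1*, *ERBB2*, *EGFR*, *FGFR1* and *PDGFRB*. A375 siNC had the same order except that *MET* and *DDR2* stood before *ERBB3*. With 1 library per group there is no replicate spread by which neighbours in this order could be told apart. The authors divided by a single length per gene, which was 10.3 kb for *ERBB2* and 17.2 kb for *FGFR1*, while the principal transcripts measure 4.55 and 5.90 kb. Per principal transcript length, *ERBB2* took rank 2 and *MET* rank 3 in SK-MEL-28, and *DDR1* rank 3 and 4 in A375 (siLINC01291, siNC). In both A375 libraries *DDR2* then took rank 5, *FGFR1* rank 7 and *EGFR* rank 8, *MET* took rank 4 with siLINC01291, and *ERBB3* rank 3 with siNC. *AXL* kept rank 1 in both A375 libraries and *ERBB3* rank 1 in both SK-MEL-28 libraries under either length.

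The second comparison sets siLINC01291 against siNC. None of the 9 receptors passed the test over both lines (0 higher, 0 lower), beside 0.222% higher and 0.674% lower (0.896% in either direction) of the 13501 genes tested with edgeR. By DESeq2 and by limma, 0 of the 9 passed as well, though DESeq2 gave *PDGFRB* no adjusted p. *ERBB2* alone reached an unadjusted p below 0.05 (0.0332) with edgeR, at an adjusted p = 0.250, and 0 did with DESeq2 and 1 with limma. Its log2 ratio was 0.28 over both lines (SE 0.10), with 0.38 in SK-MEL-28 and 0.17 in A375. Of all 13501 genes tested, 2282 reached an unadjusted p below 0.05 with edgeR, 1047 with DESeq2 and 2023 with limma. Later counts at an unadjusted p below 0.05 stand beside these. In SK-MEL-28, 0 of the 3 expressed receptors were 1.5-fold or 2-fold higher or lower, beside 6.45% and 1.73% of genes at least 1.5-fold and 2-fold higher and 4.99% and 1.54% lower. In A375, 0 of 9 were 2-fold higher or lower, beside 0.959% and 1.05% of genes. In the fit over both lines, the median log2 ratio of the 9 was −0.16, beside 0.01 over all genes tested.

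**Figure D3:**
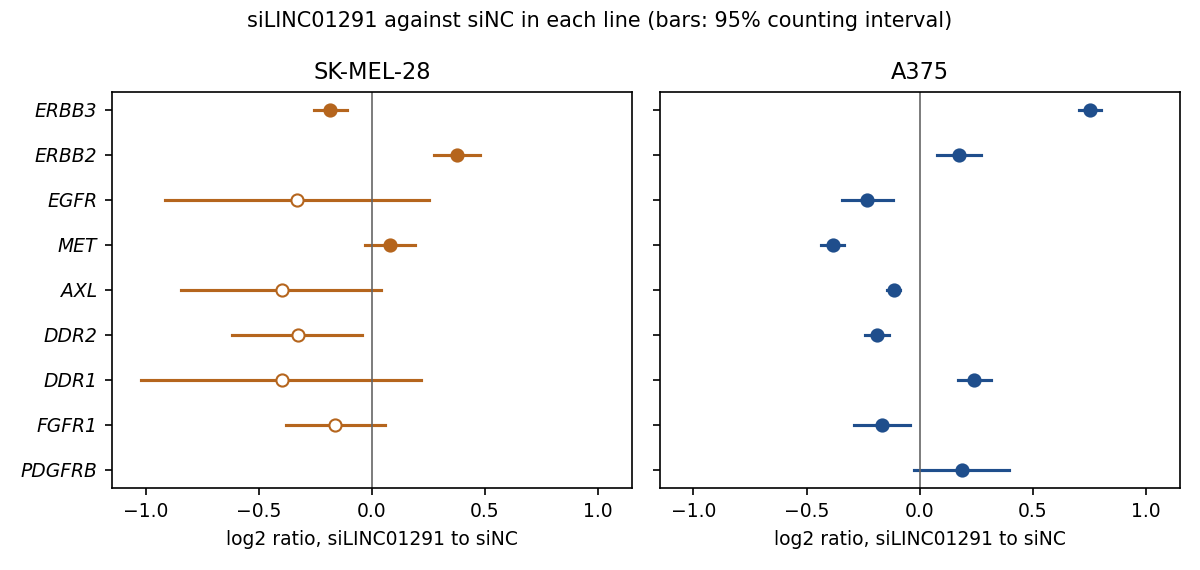
Log2 ratio of siLINC01291 to siNC for each receptor in SK-MEL-28 (left) and A375 (right); bars are 95% counting intervals and hollow points mark receptors below an FPKM of 1 in both libraries of the line. *PDGFRB* is not drawn in SK-MEL-28 (4 and 1 counts). *ERBB3* lies at −0.18 in SK-MEL-28 and at 0.75 in A375.

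Of the 3 receptors expressed in both lines, *ERBB3* and *MET* differed most between the lines in this comparison. In SK-MEL-28 *ERBB3* stood at 0.881 times its siNC level with siLINC01291 (0.838 to 0.926). In A375 it was 1.68-fold higher with siLINC01291 than with siNC (1.63 to 1.74), and it ranked 315 from the top among 13244 genes expressed there. It was the only one of the 9 receptors at least 1.5-fold higher in A375, where 4.06% of genes were, and none of the 9 was at least 1.5-fold lower, where 3.86% were. The log2 ratios of the lines, SK-MEL-28 minus A375, differed by −0.94 (counting interval −1.02 to −0.85), and *ERBB3* took rank 245 by size of this difference among 10988 genes expressed in both lines. A difference of 2-fold or more was reached by 1.85% of those genes and by 0 of the 3 receptors. Over both lines its log2 ratio was 0.29 (SE 0.21, edgeR adjusted p = 0.527).

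*MET* took the opposite course. In SK-MEL-28 it stood at 1.06 times its siNC level with siLINC01291 (0.979 to 1.14), while in A375 it stood at 0.767 times (0.740 to 0.794). The log2 ratios of the lines differed by 0.46 (0.34 to 0.58), SK-MEL-28 minus A375, which was rank 1378 of the 10988 genes. Over both lines its log2 ratio was −0.16 (SE 0.13, edgeR adjusted p = 0.580). Ratios of opposite sign in the lines were found for 35.2% of the 10988 genes, so the signs of *ERBB3* and *MET* alone set neither apart. An interaction term leaves no residual degree of freedom with 4 libraries, so neither difference was tested.

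In A375 *ERBB3* was 12.6% and *MET* 11.7% of the summed receptor FPKM with siLINC01291, against 7.26% and 14.8% with siNC. The ERBB receptors together had 14.6 FPKM in SK-MEL-28 siLINC01291, against 14.1 in SK-MEL-28 siNC, and 35.6 FPKM in A375 siLINC01291, against 23.9 in A375 siNC. *SOX10*, known as a regulator of *ERBB3* in neural crest cells, had a log2 ratio of 0.18 in SK-MEL-28 and 0.52 in A375, and *MITF* 0.30 and −0.094. Over both lines the log2 ratio of *SOX10* was 0.35 (SE 0.10, edgeR adjusted p = 0.166). The melanocyte markers, of which *SOX10* is 1, stood higher with siLINC01291 in both lines by their summed FPKM, in A375 mostly through *SOX10* itself. Of these markers, 11 of 11 had a log2 ratio above 0 over both lines, beside 6942 of the 13501 genes tested. Only 6 of the 11 were expressed in A375, and *TYR*, *DCT*, *TYRP1*, *MLANA* and *S100A1* entered the fit through SK-MEL-28 alone. Among the markers expressed in a line, the ratios reached down to −0.052 in SK-MEL-28 and −0.094 in A375. With edgeR 0 of 11 passed (4 at an unadjusted p below 0.05), and with DESeq2 1 rose, *CSPG4*, beside 99 of 13501 genes. The part of the markers in the *ERBB3* values was not tested.

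*AXL*, *DDR2* and *EGFR* were lower with siLINC01291 in both lines, none past the threshold. *AXL* stood at 75.9% of its siNC level in SK-MEL-28 (55.7 to 103%) and at 92.4% in A375 (90.6 to 94.2%). Over both lines its log2 ratio was −0.19 (SE 0.10, edgeR adjusted p = 0.422). *DDR2* stood at 79.6% in SK-MEL-28 (65.2 to 97.1%) and at 87.7% in A375 (84.5 to 90.9%), with a log2 ratio of −0.24 over both lines (SE 0.10, edgeR adjusted p = 0.297). *EGFR* stood at 79.6% in SK-MEL-28 (53.0 to 119%) and at 85.2% in A375 (78.8 to 92.1%), with a log2 ratio of −0.25 (SE 0.13, edgeR adjusted p = 0.388). The SK-MEL-28 intervals of *AXL* and *EGFR* include no change.

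*FGFR1* stood at 89.4% in SK-MEL-28 (76.8 to 104%) and at 89.1% in A375 (81.8 to 97.0%). *DDR1* stood at 76.0% in SK-MEL-28 (49.3 to 116%), where it had 41 and 53 counts, and was 1.18-fold higher in A375 (1.12 to 1.24). The 4 counts against 1 of *PDGFRB* in SK-MEL-28 gave a ratio of 3.93 (0.389 to 194), and its ratio in A375 was 1.14 (0.984 to 1.32). The collagen receptors thus had log2 ratios of different sign in A375, at 0.24 for *DDR1* and −0.19 for *DDR2*. Over both lines the log2 ratios of *FGFR1*, *DDR1* and *PDGFRB* were −0.16, 0.11 and 0.24, with edgeR adjusted p of 0.508, 0.795 and 0.656.

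The receptors that held a 7-base word shown above, *AXL*, *FGFR1* and *DDR2*, had log2 ratios of −0.39, −0.16 and −0.33 in SK-MEL-28 and of −0.11, −0.17 and −0.19 in A375. In SK-MEL-28 all 3 were below an FPKM of 1, and the counting intervals of *AXL* and *FGFR1* included no change. *EGFR*, which held no word in its UTR of 6011 bases, had log2 ratios of −0.32 in SK-MEL-28 and −0.23 in A375. None of the 4 passed over both lines.

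The other receptor tyrosine kinases were described from a list of 48, of which 25 were listed and 19 tested. Over both lines 0 rose and 0 fell, with edgeR (6 at an unadjusted p below 0.05), DESeq2 (5) or limma (2), and the median log2 ratio was 0.13 beside 0.01 over all genes tested. With no filter on low values, 1 of the 25 rose, *KDR*, beside 146 of 18175 genes. *FGFR3*, another FGF receptor, had a log2 ratio of 0.58, *MERTK* of 0.54, and the ephrin receptors *EPHA3* and *EPHA4* of 0.48 and 0.37, with edgeR adjusted p between 0.123 and 0.288. By line, the *FGFR3* ratio was −0.075 in SK-MEL-28, where it was below an FPKM of 1, and 0.79 in A375. *MERTK* was below an FPKM of 1 in A375. In A375, 4 of the 18 expressed (22.2%) were at least 1.5-fold higher with siLINC01291, beside 4.06% of all genes, and 0 were at least 1.5-fold lower. Of these 4, *KDR* and *FLT1* counted as expressed only through the siLINC01291 library, where they were high, so nothing is read from the count. They were *KDR* and *FLT1*, both VEGF receptors, *FGFR3* and *EPHA3*, and all but the last were below 3 FPKM in both A375 libraries (*KDR* and *FLT1* were chosen after their values were seen). *KDR* had 479 counts in A375 siLINC01291, against 154 in A375 siNC, and *FLT1* 579 against 282. In SK-MEL-28, 0 of 13 were 1.5-fold higher or lower.

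Between the lines, 8 of these 19 receptors were higher and 8 lower in SK-MEL-28, beside 36.1% and 36.3% of all genes. *FGFR3*, *TIE1*, *EPHA2*, *EPHB1*, *EPHB2* and *EPHB3* entered the test only through A375, and *MERTK* and *EPHA5* only through SK-MEL-28, so nothing is read from these counts either. The adjusted p of *EPHA2* and *MERTK* between the lines is likewise a description. *EPHA2*, an ephrin-A receptor, had 0.689 and 0.999 FPKM in SK-MEL-28 (siLINC01291, siNC), against 106 and 122 in A375 (log2 difference −6.91, edgeR adjusted p = 5.37e-07). It was thus close to *AXL* in level and in the size of the gap. *EPHA5* had 1.35 and 1.39 FPKM in SK-MEL-28, against 0.00956 and 0.0164 in A375, and *TIE1*, a receptor best known from endothelium, had 0.0203 and 0.00506 FPKM in SK-MEL-28, against 1.84 and 2.01 in A375.

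Of 32 ligand genes, 18 were listed and 16 tested. None passed over both lines (0 rose, 0 fell) with edgeR (3 at an unadjusted p below 0.05), DESeq2 (3) or limma (2), and the median log2 ratio was −0.20. With no filter, 1 of the 18 fell, *HBEGF*, beside 238 of 18175 genes. *HBEGF*, which encodes an EGFR ligand, stood at 2.49 FPKM in SK-MEL-28 siLINC01291, against 5.31 in SK-MEL-28 siNC, and at 5.35 FPKM in A375 siLINC01291, against 7.72 in A375 siNC. It was lower in both lines without passing the test (log2 ratio −0.83, SE 0.16, edgeR adjusted p = 0.0879). *AREG*, another EGFR ligand gene, had a log2 ratio of −0.80, *KITLG*, the KIT ligand gene, of −0.51, and *NRG3*, a neuregulin gene, of 0.55 (edgeR adjusted p 0.235, 0.108 and 0.376). *NRG1*, the neuregulin best known for binding ERBB3 and chosen after its values were seen, had 419 counts in A375 siLINC01291, against 857 in A375 siNC, where *ERBB3* was the higher with siLINC01291. In SK-MEL-28 *NRG1* had 91 and 104 counts. *TGFA*, also chosen after its values were seen, was 0.483 times its siNC level in SK-MEL-28 (0.373 to 0.623) and 0.949 times in A375 (0.915 to 0.985).

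The EGFR ligands differed between the lines in different directions. *TGFA* had 0.643 and 1.30 FPKM in SK-MEL-28 (siLINC01291, siNC), against 36.5 and 37.3 in A375, the line with *EGFR*. *EGF*, chosen after its values were seen, had 1.32 and 1.18 FPKM in SK-MEL-28, against 0.312 and 0.271 in A375. Of the 16 ligands tested, 4 were higher and 11 lower in SK-MEL-28, beside 36.1% and 36.3% of all genes. Ligands such as *PDGFC* and *NRG3* entered the test through 1 line only, so this count is a description. *NRG3* had 2.70 and 1.74 FPKM in SK-MEL-28, against 0 and 0.0124 in A375. *PDGFC* had 0.0170 and 0.0452 FPKM in SK-MEL-28, against 2.09 and 2.45 in A375. *GAS6*, chosen after its values were seen as the AXL ligand, had 0.565 and 0.553 FPKM in SK-MEL-28, against 1.30 and 1.59 in A375.

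Adaptors and effectors that dock on the receptors were described from a list of 27, of which 25 were listed and 24 tested. Over both lines 0 rose and 0 fell with edgeR (8 at an unadjusted p below 0.05) or limma (5). With DESeq2 1 rose, *STAT3*, beside 99 of 13501 genes. The median log2 ratio was 0.04. With no filter, *STAT3* rose and *LYN* and *GAB1* fell, beside 146 genes higher and 238 lower of 18175. *STAT3* had 7.95 FPKM in SK-MEL-28 siLINC01291, against 4.98 in SK-MEL-28 siNC, and 12.4 FPKM in A375 siLINC01291, against 8.54 in A375 siNC, higher in either line without passing the test (log2 ratio 0.57, SE 0.09, edgeR adjusted p = 0.0590). *LYN*, a SRC family kinase, had a log2 ratio of −0.79, *FRS2*, the adaptor of FGF receptors, of −0.64, and *GAB2*, a docking protein, of 0.39 (edgeR adjusted p between 0.0879 and 0.109). Between the lines, *GAB2*, *FYN*, *NCK2* and *GRB10* were higher in SK-MEL-28, with log2 differences of 2.15, 2.72, 2.75 and 3.26 (edgeR adjusted p at most 2.04e-05). Of the 25 adaptors listed, 25 were expressed in SK-MEL-28 and 23 in A375, so not all those tested were expressed in both lines. These adjusted p are thus a description.

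Negative regulators, the proteins that dephosphorylate, degrade or block the receptors, were described from a list of 28, of which 27 were listed and tested. Over both lines 0 rose and 0 fell with edgeR or limma (5 at an unadjusted p below 0.05 in each), while 1 fell with DESeq2 and with no filter, *PTPRJ*. Over all genes, 203 of 13501 fell with DESeq2 and 238 of 18175 with no filter. The median log2 ratio was −0.063. *PTPRJ*, a receptor phosphatase, had 3.08 FPKM in SK-MEL-28 siLINC01291, against 5.31 in SK-MEL-28 siNC, and 4.72 FPKM in A375 siLINC01291, against 6.70 in A375 siNC (log2 ratio −0.68, SE 0.11, edgeR adjusted p = 0.0590). *ERRFI1*, an inhibitor of the ERBB kinases, stood at 0.502 times its siNC level in SK-MEL-28 (0.460 to 0.548) and at 0.884 times in A375 (0.855 to 0.914). *SOCS4* and *USP8*, which act on EGFR turnover, had log2 ratios of −0.48 and −0.46 (edgeR adjusted p = 0.0952 and 0.109). *SPRY1*, a feedback inhibitor of receptor signalling, had 8.47 and 9.28 FPKM in SK-MEL-28 (siLINC01291, siNC) and 2.41 and 1.46 FPKM in A375, so it was the lower with siLINC01291 in SK-MEL-28 and the higher in A375. Between the lines, *ERRFI1* and *PTPRF* were lower in SK-MEL-28 (log2 differences −2.40 and −2.96) and *LRIG1* and *SPRY1* higher (2.39 for both), with edgeR adjusted p at most 8.92e-05.

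Transcription factors tied to the melanocytic and dedifferentiated states were described from a list of 20, all listed and 19 tested. 0 rose and 2 fell over both lines, *CTBP2* and *JUN*, beside 0.674% of all genes that fell with edgeR. Both also fell with DESeq2, where 203 of 13501 genes did. The list was chosen with earlier results of these data known, so nothing is read from the count. *CTBP2*, a corepressor, had 4.88 FPKM in SK-MEL-28 siLINC01291, against 8.32 in SK-MEL-28 siNC, and 5.65 FPKM in A375 siLINC01291, against 8.79 in A375 siNC (log2 ratio −0.74, SE 0.09, edgeR adjusted p = 0.0369). *JUN*, a subunit of AP-1, had 7.60 FPKM in SK-MEL-28 siLINC01291, against 11.9 in SK-MEL-28 siNC, and 20.3 FPKM in A375 siLINC01291, against 30.6 in A375 siNC (log2 ratio −0.65, SE 0.09, edgeR adjusted p = 0.0468). Neither passed with limma on log2(FPKM + 1), where the adjusted p was 0.148 for *CTBP2* and 0.152 for *JUN*, nor with an FPKM minimum of 5 (edgeR adjusted p = 0.0600 and 0.0672). Scaling by library totals also left *JUN* short of the threshold (edgeR adjusted p = 0.0561). Between the lines, *SNAI2* and *MITF* were higher in SK-MEL-28 (log2 differences 8.19 and 3.77), and *ZEB1* and *SOX2* lower (−6.80 and −5.32), with edgeR adjusted p at most 8.63e-06. Of the 20 factors, 17 were expressed in SK-MEL-28 and 18 in A375, so some of the 19 tested entered through 1 line only. The adjusted p of *SNAI2*, *ZEB1* and *SOX2* between the lines is thus read as a description only.

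**Figure D4:**
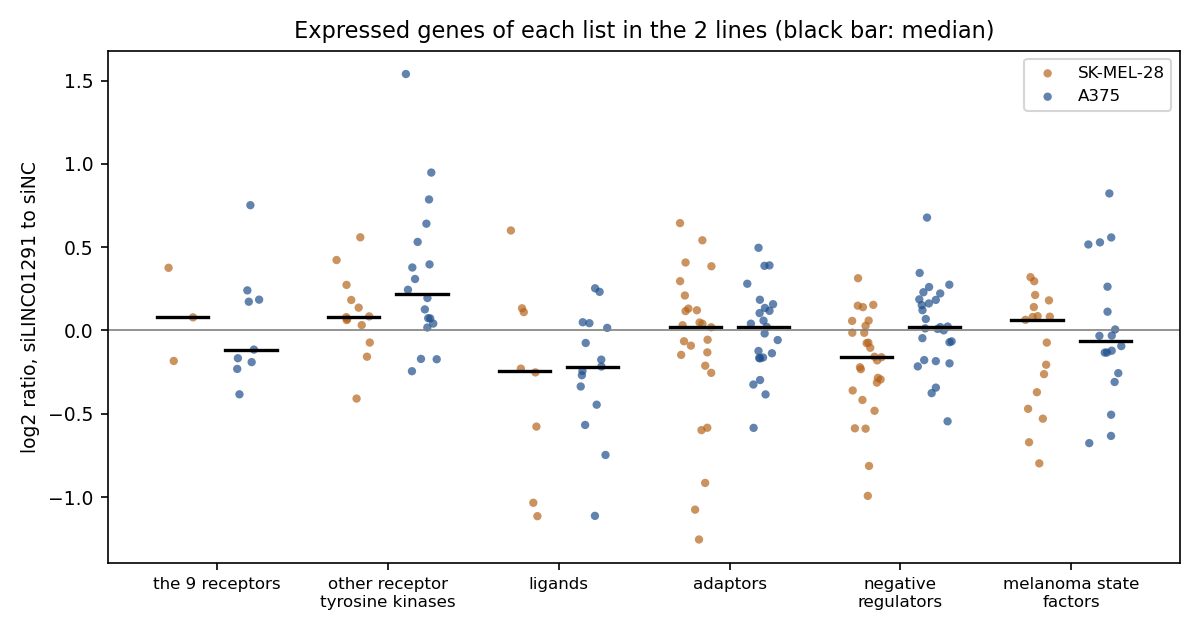
Log2 ratio of siLINC01291 to siNC in SK-MEL-28 (orange, left of each pair) and A375 (blue) for the genes of each list with an FPKM of at least 1 in either library of the line; each point is 1 gene and the black bar is the median. In A375 the other receptor tyrosine kinases reach 1.54 (*KDR*), and the ligands reach −1.11 (*NRG1*).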

How the data were processed

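RNA from A375 and SK-MEL-28 cells treated with siLINC01291 or siNC was enriched for mRNA with oligo(dT) and sequenced on an Illumina instrument, 1 library per group. Per the labels' protocols, reads were cleaned and freed of duplicates with fastp and checked with FastQC, ribosomal reads were removed, HISAT2 aligned the rest, StringTie assembled transcripts, and HTSeq counted reads per gene. The submitters' processing notes list hg19, DESeq2 and edgeR without a role. Counts per gene are whole reads as the authors deposited them. The deposited CPM are counts scaled to each library's total, and the deposited FPKM are these CPM over 1 length per gene. The deposited TPM served only as an alternative for shares. Library totals were 29351240 (SK-MEL-28 siLINC01291), 29416145 (SK-MEL-28 siNC), 31815336 (A375 siLINC01291) and 30879719 (A375 siNC). Positions come from GENCODE 29 on GRCh38 and promoters from RefSeq (GRCh38.p14).

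Counts were tested with edgeR 4.0.16 (R 4.3.3, TMM factors, glmQLFit and glmQLFTest, Benjamini-Hochberg adjustment) on the 13501 genes that reached an FPKM of 1 in 2 or more libraries, in a model of line and siRNA that leaves 1 residual degree of freedom. The pairing comes from the cell line. The sources used here do not state whether libraries came from separate cultures. The 1 residual degree of freedom is the difference between the lines in their response to the siRNA, which edgeR moderates across all genes tested. The p-values thus do not measure a spread between replicate libraries, which this design cannot give. Log2 ratios within a line used TMM factors and a prior count of 2, with exact binomial 95% intervals that cover counting error only; a count of 0 allows up to 3 counts. A line was said to express a gene where either of its libraries reached an FPKM of 1. Alternatives were other size factors, library totals, other filters and prior counts, DESeq2 1.42.0, limma 3.58.1 on log2(FPKM + 1), and a model without the other factor. The procedure was tested on simulated data. Python 3.11.15 with pandas 2.3.3, numpy 2.4.6, scipy 1.17.1 and matplotlib 3.10.9 was used for the rest.

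The receptors, the gene lists, the 7-base words and the tests were chosen with earlier results of these data known. Named were the receptors, LINC01291, *MITF*, *SOX10*, from each list the genes past the threshold over both lines and up to 4 with the largest log2 ratio over both lines and up to 4 with the largest difference between the lines, and for each receptor the 2 genes with the closest profile. 3′ UTRs of at least 50 bases were searched in 1 principal transcript per gene.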

Additional observations from a re-analysis of the deposited data

Results flagged for a closer look

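*ERBB3* and *MET* had log2 ratios of siLINC01291 to siNC of opposite sign in the lines. For *ERBB3* the ratio was −0.18 in SK-MEL-28 and 0.75 in A375. For *MET* it was 0.079 in SK-MEL-28 and −0.38 in A375, and the SK-MEL-28 counting interval of *MET* includes no change. With 1 library per group, the difference between the lines was not tested for either gene.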

How the results depend on the processing

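Over both lines, the 30 genes higher and 91 lower became 146 and 238 with no filter, 5 and 27 with an FPKM minimum of 5, 99 and 203 with DESeq2, 0 and 0 with limma (2023 at an unadjusted p below 0.05), and 0 and 0 in the model with no replicate block for the line (51 at an unadjusted p below 0.05); of *LINC01291*, *JUN* and *CTBP2*, all lost their call with limma and without the block, and *JUN* and *CTBP2* with an FPKM minimum of 5. SK-MEL-28 against A375, 4877 genes higher and 4895 lower became 3003 and 2997 at an FPKM of at least 5, where 7997 genes were tested, 4091 and 5831 with library totals, and 4056 and 5787 with limma. Scaling by library totals moved the median log2 difference of all genes between the lines to −0.19, from −0.02. Over both lines, none of the 60 alternative fits turned a member's direction or brought it past the threshold, though DESeq2 gave *PDGFRB* no adjusted p. Between the lines, direction and side of the threshold were kept in 58 of 60. The exceptions were *ERBB2*, 0.13, at −0.042 with library totals and −0.031 with limma; its log2 ratio of SK-MEL-28 to A375 with siNC, 0.03, was −0.14 with library totals and −0.11 on log2(FPKM + 1). Within A375, the 127 genes at least 2-fold higher and 139 lower became 76 and 91 with a prior count of 5, 41 and 52 on log2(FPKM + 1), and 12 and 45 at an FPKM of at least 5; at 1.5-fold, 538 and 511 became 274 and 251 on log2(FPKM + 1). Within SK-MEL-28, 214 and 190 became 79 and 87 on log2(FPKM + 1) and 49 and 83 at an FPKM of at least 5; at 1.5-fold, 796 and 616 became 444 and 328. The cause of these shifts was not tested. The order of receptors by principal transcript length was an alternative chosen after seeing the data. Leaving out a library was not run, since it leaves no residual degree of freedom. *PDGFRB*, *DDR1*, *EGFR* and *AXL* had 1 to 101 counts in SK-MEL-28, where changes of the size seen in A375 were not detectable at this depth.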

Other observations

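The genes whose profile over the 4 libraries lay closest to each receptor were found among 12285 genes by Euclidean distance of log2(FPKM + 0.1) values centred on their mean, as a description of 4 libraries. Closest to *AXL* were *KRT81*, a hair keratin gene (distance 0.160), and *FST*, the follistatin gene (0.188). *KRT81* had 0.317 and 0.352 FPKM in SK-MEL-28 (siLINC01291, siNC), against 75.8 and 84.1 in A375, and *FST* 0.272 and 0.333 in SK-MEL-28, against 62.4 and 64.0 in A375. Closest to *ERBB3* were *FMR1-IT1* (0.109) and *TNFSF9* (0.193), and *TNFSF9*, the 4-1BB ligand gene, had 8.59 and 9.94 FPKM in SK-MEL-28, against 25.2 and 17.5 in A375. Closest to *ERBB2* were *MAF1*, a repressor of RNA polymerase III (0.0330), and *ERLIN2* (0.0395), and to *MET* *RNU6-516P* (0.0960) and *TACC2* (0.102). *DDR1* lay closest to *NNMT*, the nicotinamide N-methyltransferase gene (0.0478), and *B4GALNT1* (0.0646), and *DDR2* to *ZNF329* (0.133) and *UNC13D* (0.141). *EGFR* lay closest to *COL13A1* (0.0568) and *IL31RA* (0.0681), *FGFR1* to *KLHDC4* (0.0313) and *CWF19L2* (0.0430), and *PDGFRB* to *ZNF69* (0.0530) and *HLA-DOA* (0.0646). For values near or below 0.1 FPKM, the added 0.1 pulls profiles together. A close profile then need not have a like fold between the lines. *IL31RA* had 0.00297 and 0.0119 FPKM in SK-MEL-28 (siLINC01291, siNC), against 1.24 and 1.49 in A375, a wider gap than that of *EGFR*. *ZNF329*, with 0.0158 and 0.0314 FPKM in SK-MEL-28, against 2.50 and 2.63 in A375, had a wider gap than *DDR2*.

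*FOXD3*, a neural crest factor chosen after its values were seen because it is known at *ERBB3*, had 156 counts in SK-MEL-28 siLINC01291, against 213 in SK-MEL-28 siNC, and 154 in A375 siLINC01291, against 100 in A375 siNC. Its log2 ratios were −0.47 in SK-MEL-28 and 0.53 in A375, and its edgeR adjusted p over both lines was 0.998.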
